A study of Mus musculus with 10 samples.

Results

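The genes described here are 31 mouse genes that make cholesterol and fatty acids or control their making under the SREBP transcription factors. They were taken by symbol from a list of 32 genes, and for each gene the probe set whose mean over the 10 arrays was highest was used, out of 18193 genes with a named probe set. Acat2 was not analysed here. The members are 16 enzymes of sterol synthesis, 9 enzymes of fatty acid synthesis, 5 regulators and the sterol carrier gene Stard4, and membership used no measured value.

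Expression was measured on Affymetrix arrays of total RNA from cultured mouse fibroblasts in which Med23 was missing or reduced. Its product is part of Mediator, through which transcription factors reach RNA polymerase II. Mouse embryonic fibroblasts (MEFs) had been isolated from 9.5-day embryos and had immortalised on their own in culture. They gave 6 arrays: WT (wild type) and KO (Med23 knockout) MEFs were each taken in the absence of serum (called 0 min) and once serum had been given for 30 or 90 min. The labels do not say how many lines stood for a genotype, so each genotype may be 1 line, and differences between lines cannot be told apart from differences between genotypes. The 10T1/2 cells, a mouse embryonic fibroblast line, gave 4 arrays: untreated cells as control, cells overexpressing MAL, cells with Med23 knocked down, and cells with both treatments. MAL is a coactivator of the serum response factor SRF. Both kinds of cell were kept in medium with bovine serum, and the labels describe neither how serum was withdrawn nor how MAL and the knockdown were delivered. Each condition had 1 array. Values are log2 levels, so a difference of 1 is a doubling, and the number of arrays limits their precision. In these bulk cultures, fewer cells of a type and less RNA per cell cannot be told apart.

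SREBPs are made as precursors held in the membrane of the endoplasmic reticulum. When sterols run low, the escort protein SCAP carries them to the Golgi, where proteases free the part that enters the nucleus and activates genes, and when sterols are plentiful INSIG proteins hold SCAP back. SREBP-2, from Srebf2, acts mainly on sterol genes, and SREBP-1, from Srebf1, mainly on fatty acid genes. Fibroblasts take up cholesterol from serum lipoproteins and make their own when these are withheld.

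Promoters of 5 sterol enzyme genes are shown because these genes stand for the patterns below. Of the members with a window, Hmgcs1 was the only one that held a classical sterol regulatory element, Idi1 had the largest knockout coefficient among the sterol enzymes, and Hsd17b7 was the member called at both serum times. Lss was called in the knockout and not with serum, and Ebp was the sterol enzyme that fell in the knockout. Each sequence runs from 250 bases before to 50 bases after the gene's start in RefSeq (GRCm38.p6), on the gene's own strand. The windows are chr13:119690101-119690400 (plus strand) for Hmgcs1, chr13:8885356-8885655 (plus) for Idi1, chr1:169969156-169969455 (minus) for Hsd17b7, chr10:76531355-76531654 (plus) for Lss and chrX:8193463-8193762 (minus) for Ebp. Capitals mark matches to TCACNCCAC (sterol regulatory element), to CACGTG (E-box) and to CCAAT (bound by NF-Y), with CCAAT on the other strand read as ATTGG.
Hmgcs1: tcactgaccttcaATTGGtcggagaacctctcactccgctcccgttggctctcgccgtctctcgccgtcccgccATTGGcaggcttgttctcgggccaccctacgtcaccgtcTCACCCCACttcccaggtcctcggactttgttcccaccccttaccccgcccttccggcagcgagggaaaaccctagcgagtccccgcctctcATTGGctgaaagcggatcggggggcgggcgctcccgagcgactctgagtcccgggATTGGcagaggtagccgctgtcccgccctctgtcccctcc
Idi1: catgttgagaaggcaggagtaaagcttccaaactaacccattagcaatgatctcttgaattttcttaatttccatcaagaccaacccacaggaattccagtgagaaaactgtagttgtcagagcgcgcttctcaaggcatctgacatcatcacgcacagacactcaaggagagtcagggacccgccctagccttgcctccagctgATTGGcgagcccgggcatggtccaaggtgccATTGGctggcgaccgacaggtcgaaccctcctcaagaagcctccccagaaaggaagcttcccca
Hsd17b7: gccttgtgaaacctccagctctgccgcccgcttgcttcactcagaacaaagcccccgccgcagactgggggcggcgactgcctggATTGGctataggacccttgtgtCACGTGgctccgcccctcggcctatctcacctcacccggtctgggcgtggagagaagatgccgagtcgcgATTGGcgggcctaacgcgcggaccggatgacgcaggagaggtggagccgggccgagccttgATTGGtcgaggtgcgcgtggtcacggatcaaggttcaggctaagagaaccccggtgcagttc
Lss: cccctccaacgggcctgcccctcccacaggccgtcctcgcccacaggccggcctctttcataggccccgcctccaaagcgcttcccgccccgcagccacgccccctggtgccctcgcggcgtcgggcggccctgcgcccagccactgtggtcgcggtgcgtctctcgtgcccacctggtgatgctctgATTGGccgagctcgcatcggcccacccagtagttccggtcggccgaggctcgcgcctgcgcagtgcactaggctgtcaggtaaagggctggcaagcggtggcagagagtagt
Ebp: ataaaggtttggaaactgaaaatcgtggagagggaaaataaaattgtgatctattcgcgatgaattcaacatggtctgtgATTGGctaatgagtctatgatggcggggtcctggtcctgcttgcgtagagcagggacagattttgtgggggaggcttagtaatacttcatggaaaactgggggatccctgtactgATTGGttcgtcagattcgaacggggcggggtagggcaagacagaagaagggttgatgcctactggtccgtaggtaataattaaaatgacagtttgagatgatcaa
The element TCACCCCAC, a form of TCACNCCAC, began 137 bases before the Hmgcs1 start. CACGTG began 143 bases before the Hsd17b7 start. Every CCAAT match in the 5 windows lay on the reverse strand.

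Of the 31 members, 24 had a promoter window in the table. Sqle, Fdps, Fdft1, Stard4, Fads1, Scd1 and Scd2 had no entry. CCAAT, searched on both strands, was in 13 of 13 sterol enzyme windows, 3 of 6 fatty acid enzyme windows and 4 of 5 regulator windows, beside 41.1% of 27025 genes. GGGCGG, the Sp1 box, not capitalised above, was in 20 of the 24 windows, beside 38.2% of all genes. CACGTG was in 5 of the 24 (Hsd17b7, Sc5d, Dhcr7, Scap and Insig1), beside 8.09%. TCACNCCAC was in 1 of the 24, beside 1.44%, and its form TCACCCCAC was in 0.614% of all genes. A match says that the letters are there, and no match says only that they are not in this window.

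The labels were checked on Med23 itself, whose log2 level over the 3 serum times was 7.14, 7.39 and 6.90 in the WT cells but 3.30, 3.30 and 2.91 in the KO cells. In 10T1/2 cells it was 5.45 and 5.67 without knockdown (control, MAL) and 4.24 and 3.94 with it (knockdown, both), so both Med23 contrasts ran the way the labels say. The MAL label was not borne out in the same way. Mrtfa, the gene of MAL, was at 8.65 in control and 8.33 with MAL, and at 8.54 with knockdown and 8.44 with both treatments. Whether its probe set reads the MAL that was added was not tested. Of 11 fibroblast markers, 9 were above the median of all probe sets on all 10 arrays. Thy1 and Lum were above it on 4 and 2 arrays. Mean levels of some of the 11 differed between WT and KO MEFs, in both directions. Col1a2 averaged 9.48 in WT and 13.37 in KO cells, and Prrx1 9.26 and 9.76. Pdgfrb averaged 10.84 and 9.45, Twist1 8.14 and 6.98, Fn1 13.91 and 13.06 and Pdgfra 9.68 and 9.06. Col1a1, Col3a1, Vim, Thy1 and Lum differed by less. Markers of other cell types were mixed. Retn of 4 fat cell markers, Ttr of 3 hepatocyte markers, Csf1r of 5 macrophage markers and Epcam of 4 epithelial markers were above that median on all 10 arrays, at 3.97 to 4.66, 3.94 to 4.48, 4.26 to 4.95 and 4.6 to 6.41. Cidec and Lep (fat cell), Alb (hepatocyte), Adgre1, Itgam and Ptprc (macrophage), Cdh1, Krt8 and Krt18 (epithelium) and Cdh5 and Pecam1 (endothelium) were below it on every array, and Adipoq, Apoa1, Cd68 and Kdr were above it on some arrays. The summed level of the 5 macrophage markers was 18.1 to 18.3 in WT and 16.7 to 16.9 in KO MEFs. Most of that gap was Cd68, which averaged 4.23 in WT and 3.15 in KO cells. Csf1r, above the median on all 10 arrays, averaged 4.47 in WT and 4.48 in KO cells. Among the markers below the median on every array, Adgre1 and Ptprc were lower in KO cells and Itgam was higher. The markers thus did not share a direction. The part of these cell types in the results was not tested. The arrays' medians ran from 3.64 to 3.93, and Gapdh read from its 3′ end differed from its 5′ end by -0.26 to 0.01. The poly-A spike-in controls, added RNAs of no mouse gene, differed between arrays and are given beside the results.

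Loss of Med23 in MEFs went with higher levels of nearly the whole sterol pathway and, by smaller amounts, of most fatty acid enzymes. In an additive limma fit of genotype and serum time over the 6 arrays, 25 of the 31 members rose and 3 fell at an adjusted p below 0.05. The background was broad, since 42.1% of 11933 genes tested were called, 21.2% higher and 20.8% lower. Among sterol enzymes 14 of 16 rose and 1 fell, with a median coefficient of 1.72. Among fatty acid enzymes 7 of 9 rose and 1 fell, with a median of 0.58, and over all genes the median was -0.02. Of the regulators 3 of 5 rose and 1 fell (median 0.47), and Stard4 rose. The 3 KO values lay above all 3 WT values for 20 members and below them for 4, beside 20.5% and 20.7% of all genes.

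**Figure D1:**
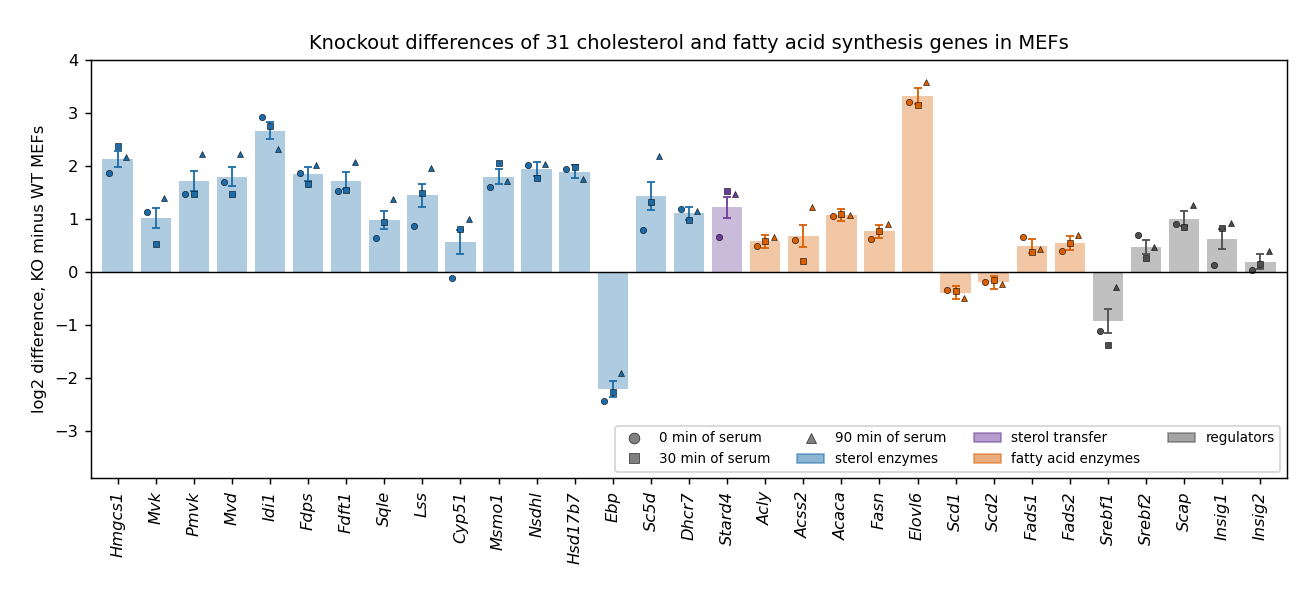
Log2 difference between KO and WT MEFs for each of the 31 genes, as the fitted coefficient (bar, with its SE) and at 0, 30 and 90 min of serum (points). Among the sterol enzymes 15 of 16 bars lie above 0 and Ebp lies at -2.21, while Elovl6, at 3.32, is the tallest bar among the fatty acid enzymes.

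The first steps of the pathway build the isoprenoid units. Hmgcs1, which makes HMG-CoA, had log2 levels of 9.19, 9.83 and 10.53 in WT and 11.05, 12.20 and 12.69 in KO MEFs at 0, 30 and 90 min. All KO values exceeded all WT values, and the coefficient was 2.13 (SE 0.15, n = 3 pairs, 4.38-fold, limma adjusted p = 0.00015). The mevalonate kinase genes Mvk and Pmvk rose by 1.01 (SE 0.19) and 1.72 (SE 0.19), the second from 6.72, 7.15 and 6.75 to 8.19, 8.61 and 8.98. Mvd, the decarboxylase that follows them, was at 6.75, 6.98 and 6.54 in WT and at 8.44, 8.44 and 8.77 in KO cells, a rise of 1.79 (SE 0.18, adjusted p = 0.000621). Mvk was not called without the 0 min arrays (0.96, adjusted p = 0.0553). Idi1, which interconverts the isoprenoid building blocks, had the largest rise of any sterol enzyme. Its levels were 6.12, 7.49 and 8.27 in WT and 9.04, 10.24 and 10.59 in KO cells, with a coefficient of 2.66 (SE 0.16, 6.33-fold, adjusted p = 8.29e-05). Fdps, which joins these units into farnesyl pyrophosphate, had nearly flat levels within a genotype. They were 9.13, 9.34 and 9.14 in WT and 10.99, 11 and 11.15 in KO cells, and the coefficient was 1.84 (SE 0.13, adjusted p = 0.000181).

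The next enzymes commit farnesyl units to sterols and close the ring. Fdft1, squalene synthase, rose by 1.72 (SE 0.16), Sqle, squalene epoxidase, by 0.98 (SE 0.17) and Lss, which forms lanosterol, by 1.44 (SE 0.22). Without the 30 min arrays Sqle had a coefficient of 1 and was no longer called (adjusted p = 0.0565).

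Of the 7 members that turn lanosterol into cholesterol, 5 rose. Cyp51, which removes the first methyl group, was at 9.09, 9.63 and 10.22 in WT and 8.98, 10.44 and 11.21 in KO cells. Its KO and WT ranges overlapped and its coefficient of 0.56 (SE 0.23) did not pass (adjusted p = 0.0942). Without the 0 min arrays it was 0.90 and passed (adjusted p = 0.0279). Its other 2 probe sets differed by 1.58 and 1.36 between the genotype means, and with the mean of its probe sets the coefficient was 1.17 and passed (adjusted p = 0.0221), so the missed call rests on the probe set used. Msmo1, a methyl sterol oxidase, was at 9.48, 9.83 and 10.81 in WT and 11.08, 11.89 and 12.53 in KO cells, a rise of 1.79 (SE 0.14, adjusted p = 0.000278). Nsdhl, the dehydrogenase that acts with it, was at 8.04, 8.24 and 7.92 against 10.06, 10 and 9.96, a rise of 1.94 (SE 0.13, adjusted p = 0.000138). Hsd17b7, the reductase that completes that step, was at 6.96, 8.28 and 9.14 against 8.90, 10.25 and 10.89. Its levels climbed with serum time in both genotypes, the ranges overlapped, and the coefficient was 1.89 (SE 0.13, adjusted p = 0.000135). Sc5d and Dhcr7, late desaturation and reduction enzymes, rose by 1.43 (SE 0.26) and 1.10 (SE 0.12), and Sc5d was not called without the 30 min arrays (1.48, adjusted p = 0.0609).

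Ebp, the isomerase that moves a double bond in the sterol ring, went the other way. Its levels were 10.63, 10.50 and 9.98 in WT and 8.19, 8.23 and 8.06 in KO MEFs. All KO values lay below all WT values, and the coefficient was -2.21 (SE 0.15, 4.63-fold lower, adjusted p = 0.000138). It was measured by 1 probe set. The Ebp call held in all 12 alternative settings tried.

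Fatty acid enzymes shared the direction of the sterol enzymes and mostly not their size. Acly and Acss2, which supply acetyl-CoA, rose by 0.58 (SE 0.12) and 0.68 (SE 0.21). Acaca, which makes malonyl-CoA, rose by 1.07 (SE 0.12), and Fasn, the synthase, by 0.76 (SE 0.13). Elovl6, which lengthens the products of Fasn, stood apart from the rest of its arm. Its levels were 7.29, 7.37 and 6.69 in WT and 10.50, 10.52 and 10.28 in KO cells, the largest change of any member (3.32, SE 0.14, 9.96-fold, adjusted p = 2.49e-05). Fads1 and Fads2, desaturases of polyunsaturated chains, rose by 0.49 and 0.55. Scd1, which puts the first double bond into saturated chains, fell from 7.25, 7.07 and 7.05 to 6.91, 6.71 and 6.56 (coefficient -0.40, SE 0.12, adjusted p = 0.0419). Scd2 was at 12.47, 12.28 and 12.34 in WT and at 12.27, 12.13 and 12.10 in KO cells and was not called (-0.20, adjusted p = 0.238). Acaca and Elovl6 were the fatty acid enzymes called without the 30 min arrays (2 of 9), against 13 of 16 sterol enzymes. Acss2 and Scd1 were not called when any of the 3 serum times was left out.

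The genes of the SREBPs themselves moved little or in the other direction. Srebf1 was at 8.35, 8.69 and 7.49 in WT and at 7.23, 7.30 and 7.20 in KO MEFs. It was lower at each time, and the fall passed (coefficient -0.93, SE 0.22, adjusted p = 0.018). Without the 0 or the 30 min arrays it was not called (-0.84 and -0.70, adjusted p = 0.107 and 0.131). Srebf2 was at 7.96, 8.43 and 8.72 against 8.65, 8.69 and 9.18, with overlapping ranges and a coefficient of 0.47 (SE 0.14, adjusted p = 0.0365). Its second probe set gave 8.05, 8.43 and 8.80 in WT and 8.34, 8.34 and 8.57 in KO cells, and the call was lost when either the probe sets were averaged or any serum time was left out. Scap, the escort, was at 7.94, 7.85 and 7.26 in WT and rose to 8.85, 8.69 and 8.52 in KO cells (coefficient 1, SE 0.14, adjusted p = 0.00245). Insig1, itself an SREBP target, was at 8.03, 8.24 and 9.04 against 8.16, 9.06 and 9.96. The genotypes differed by 0.13 at 0 min and by 0.92 at 90 min, and the coefficient was 0.62 (SE 0.18, adjusted p = 0.0372). That call was lost without the 30 min arrays (0.53, adjusted p = 0.211) and without the 90 min arrays (0.47, adjusted p = 0.153). Insig2 was at 8.63, 8.57 and 8.15 in WT and 8.66, 8.72 and 8.55 in KO cells and was not called (0.19, adjusted p = 0.295). Stard4, which moves sterols between membranes, was at 6.70, 7.36 and 7.58 against 7.35, 8.89 and 9.04 (1.21, SE 0.20, adjusted p = 0.00462). Without the 30 min arrays its adjusted p was 0.0561.

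The poly-A spike-in median was also higher in KO cells, at 5.97 against 5.69, 6.41 against 6.11 and 6.01 against 5.43 over the 3 serum times, and its part in these differences was not tested. Over the settings tried, 14 of the 28 called members kept their call in all 12. Leaving out the 30 min arrays lowered the count of members that rose from 25 to 15, of which 12 were sterol enzymes. The count over all genes fell too, from 2535 of 11933 to 1304 of 11759 called higher.

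Other genes of the pathway did not share a direction. Of 43 such genes listed by function, 35 were measured and 32 tested, of which 10 rose and 9 fell, with a median of 0.15, beside the 21.2% and 20.8% of all genes given above. Among further genes listed on the sterol side Tm7sf2, a sterol reductase, had the largest rise. It was at 5.67, 5.55 and 4.72 in WT and at 8.09, 8.12 and 7.72 in KO cells (2.66, SE 0.15, adjusted p = 7.95e-05). Lbr, which has the same reductase activity, rose by 0.76, Tmem97 by 0.63 and the mitochondrial thiolase Acat1 by 1.82, whereas Ggps1, which sends farnesyl units to protein prenylation, fell by 0.54. Of 5 lipid uptake and trafficking genes 4 fell, beside 20.8% of all genes. Vldlr, a lipoprotein receptor, was at 8.42, 8.51 and 8.82 in WT and at 4.01, 3.60 and 3.47 in KO cells, where 2 of 3 values lay below the array median (-4.89, SE 0.20, adjusted p = 2e-05). Scarb1, the HDL receptor, fell by 0.96, Npc1, which exports cholesterol from lysosomes, by 0.82 and Lrp1 by 0.40. Of the proteases that release SREBPs, Mbtps2 rose by 1.51 and Mbtps1 fell by 0.61. Abca1, the cholesterol exporter, fell by 2.44, and Mylip, a ubiquitin ligase for lipoprotein receptors, rose by 2.99. Both are known targets of LXR. On the fatty acid side Elovl5 (1.02), Lpin1 (0.90), Slc25a1 (0.68) and Acsl3 (0.66) rose, and Mid1ip1 (-3.40) and Acsl4 (-1.13) fell.

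With serum a subset of the sterol enzymes rose, and 0 of the 9 fatty acid enzymes passed. At 90 min against 0 min, 8 of 31 members rose and 0 fell, beside 4.56% of all genes higher and 8.95% lower. They were 6 sterol enzymes, Insig1 and Stard4. Hsd17b7 rose by 2.08 (SE 0.15, n = 2 pairs, limma adjusted p = 0.00484), Idi1 by 1.85 (SE 0.19, adjusted p = 0.00611) and Hmgcs1 by 1.49 (SE 0.18, adjusted p = 0.00822). Msmo1 rose by 1.39 (SE 0.17, adjusted p = 0.00918), Cyp51 by 1.68 (SE 0.28, adjusted p = 0.0172) and Insig1 by 1.41 (SE 0.23, adjusted p = 0.016). Stard4 rose by 1.28 (SE 0.24, adjusted p = 0.0245). Sqle, at 9.47, 9.87 and 10.15 in WT and 10.10, 10.80 and 11.52 in KO cells, rose by 1.05 (SE 0.21, adjusted p = 0.0272). Sc5d had a coefficient of 1.21 (SE 0.32) and Srebf2 one of 0.65 (SE 0.17), and neither passed (adjusted p = 0.0575 and 0.057).

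The other 10 sterol enzymes were not called over the same 90 min, and their coefficients ran from -0.39 for Ebp to the 1.21 of Sc5d. Fdft1 had 0.42 (adjusted p = 0.198) and Pmvk 0.41 (adjusted p = 0.276). Within single genotypes Lss, Pmvk and Fdft1 differed by 0.90, 0.79 and 0.70 in KO cells and by -0.19, 0.03 and 0.14 in WT cells. Mvd (0.06), Nsdhl (-0.11) and Dhcr7 (-0.15) lay nearer 0, although all 3 rose in the knockout. The median coefficient was 0.42 for sterol enzymes, -0.28 for fatty acid enzymes and -0.11 for all genes, and 8 of 9 fatty acid enzymes had a negative value, with Fasn (0.47, adjusted p = 0.1) as the exception. No member among the 31 was called at 90 min without the 30 min arrays, where adjusted p for these 8 ran from 0.0509 to 0.104.

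At 30 min the change was already under way for Hsd17b7, the 1 member called (1.33, SE 0.15, adjusted p = 0.0471), beside 0.235% of all genes called higher. That call was lost in 4 of 8 settings: in the fit over all 10 arrays (1.33, adjusted p = 0.103), with the mean of its probe sets (0.99, adjusted p = 0.126), with quantile normalization (1.27, adjusted p = 0.0543) and without the 90 min arrays (adjusted p = 0.134). Between 30 and 90 min, Msmo1 (0.81, SE 0.17, adjusted p = 0.0419) and Hsd17b7 (0.75, SE 0.15, adjusted p = 0.0367) rose further, beside 1.82% of all genes, and both calls were lost without the 0 min arrays. The Hsd17b7 call was also lost in the fit over all 10 arrays. For Msmo1 the mean of its probe sets gave -0.17 in that interval.

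**Figure D2:**
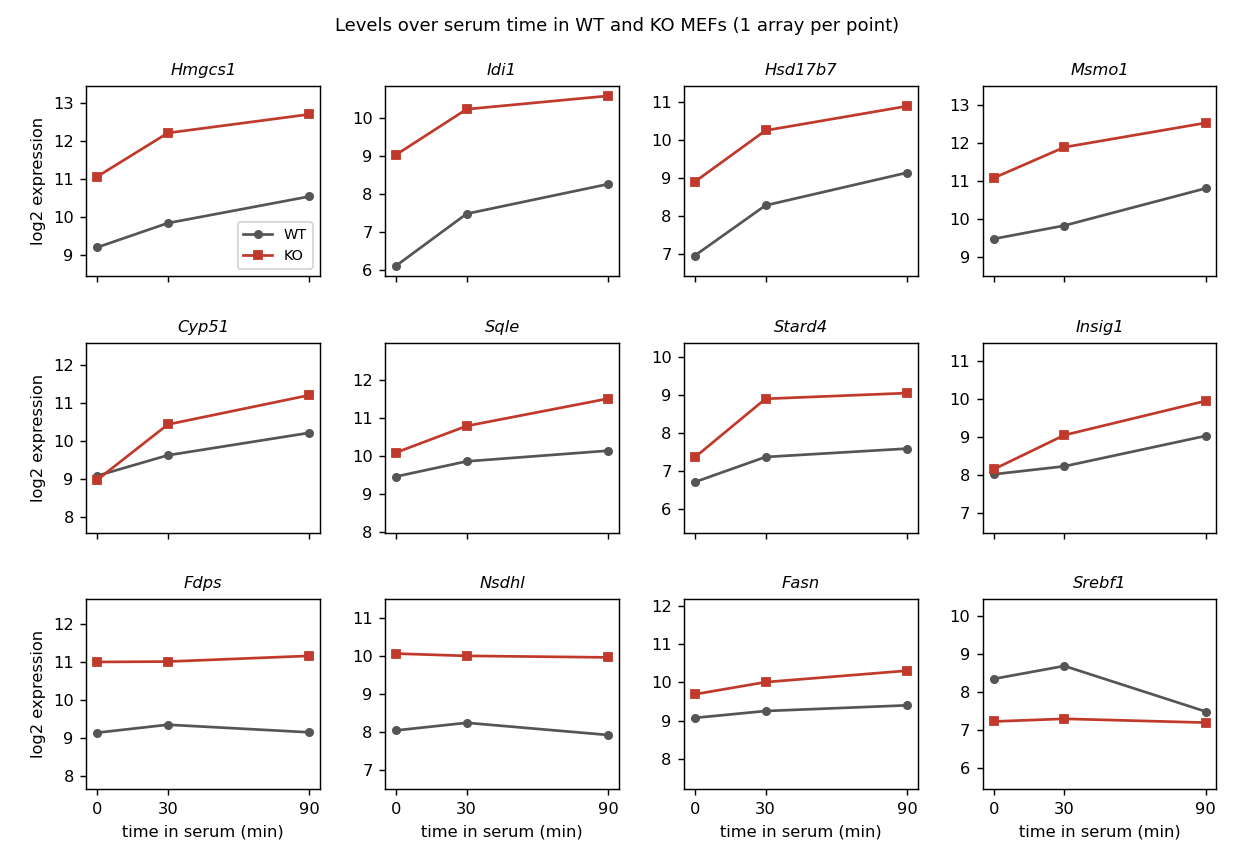
Log2 level of 12 members at 0, 30 and 90 min of serum in WT (grey circles) and KO (red squares) MEFs, 1 array per point, each panel spanning the same height. The 8 members in the upper panels climbed in both genotypes, whereas Fdps and Nsdhl stayed level within a genotype, with the KO line near 11 and 10.

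Serum and the knockout were set side by side from single arrays, with no test, since the design leaves no replicate for their interaction. From 0 to 90 min the median sterol enzyme differed by 0.09 in WT and by 0.85 in KO MEFs, and 5 of 16 in WT against 7 of 16 in KO cells were higher by at least 1, beside 3.74% and 4.55% of all genes. Fatty acid enzymes had medians of -0.30 and -0.17. The gap between KO and WT cells was larger at 90 than at 0 min for 13 of 16 sterol enzymes and for 24 of all 31 members, beside 54.4% of all genes. The sterol enzymes' median gap was 1.5 without serum, 1.48 after 30 min and 1.99 after 90 min. The gap of the poly-A spike-in median between the same arrays was 0.28, 0.30 and 0.58, larger at the same step, and its part in the wider gap was not tested. Sc5d showed the largest change in gap. It was at 7.42, 7.96 and 7.93 in WT and at 8.20, 9.28 and 10.11 in KO cells. Cyp51 and Lss were the other sterol enzymes whose gap grew by at least 1, beside 3.34% of all genes. Lss was at 6.87, 6.79 and 6.68 in WT and at 7.74, 8.28 and 8.64 in KO cells. Other probe sets above the median on all 10 arrays gave smaller changes in gap from 0 to 90 min, from 1.68 to 1.89 for Sc5d, from 1.05 to 1.64 for Cyp51 and from 1.83 to 2.49 for Lss. Idi1 narrowed, from a gap of 2.92 at 0 min to 2.32 at 90 min.

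In 10T1/2 cells no member passed for MAL or for knockdown in the fit of these 4 arrays, and the largest differences from control were on the array with both treatments. Knockdown of Med23 called 0 of 12440 genes (0%) after adjustment in the additive limma fit, with 3972 genes at an unadjusted p below 0.05. Of the members 1 was higher and 11 were lower at that unadjusted level, beside 17.2% and 14.7% of all genes. The knockdown coefficient was negative for 15 of 16 sterol enzymes, with a median of -0.70, and was -0.17 at the median of fatty acid enzymes and -0.08 over all genes. This coefficient averages a pair of differences that were far apart. Knockdown alone against control was negative for 11 of 16 sterol enzymes (median -0.205), beside 52.6% of all genes (median -0.03). With MAL present (both treatments against MAL) 15 of 16 were negative (median -1.28), beside 57.8% of all genes (median -0.13). In the joint fit of all 10 arrays, 11 members passed as lower with knockdown and 1 as higher, beside 1016 and 1642 of 13034 genes. The count of calls thus depends on the fit. MAL overexpression called 8 genes (0.0643%) and 0 members. At an unadjusted p below 0.05, 9 members were lower and 1 higher with MAL, beside 13.7% and 13.9% of all genes. The joint fit called 6 members lower with MAL, beside 986 of 13034 genes.

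The array with both treatments differed most from control. Of the members 14 were lower by at least 1 and 1 was higher, beside 11.5% and 17.9% of all genes. They were 8 of 16 sterol enzymes, 3 of 9 fatty acid enzymes and 3 of 5 regulators, with arm medians of -1.02, -0.59 and -1.04 and a median of -0.13 over all genes. Mvd was at 9.62 in control, 8.84 with MAL, 8.57 with knockdown and 6.80 with both, a difference of -2.82. Dhcr7 was at 9.24, 8.09, 8.26 and 6.59, a difference of -2.65, and Mvk at 9.44, 8.89, 8.35 and 7.02. Fdps was level with MAL and lower with knockdown, at 11.74, 11.75 and 11, and at 9.68 with both. Lss was at 9.34, 9.10, 8.65 and 7.39. For these 5 genes the array with both treatments was the lowest of the 4, each by more than 1. Another Lss probe set, above the median on all 10 arrays, read 6.18, 6.87, 6.96 and 6.13, a difference from control of -0.05 with both treatments and of 0.78 with knockdown in place of -1.95 and -0.69, so the fall of Lss here rests on the probe set used. The other such probe sets of Mvk and Mvd gave -2.32 and -2.72.

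Not all sterol enzymes were lower there. Hmgcs1 was at 10.52, 11.06, 11.20 and 11.29 in the same order, highest with both treatments. Hsd17b7 was at 8.43, 9.28, 8.94 and 8.70, Msmo1 at 10.38, 10.75, 10.20 and 10.41 and Idi1 at 8.44, 8.60, 8.28 and 8.39. These 4 were among the 6 sterol enzymes that rose with serum in MEFs. Of those 6, none was lower by at least 1 on the array with both treatments (median -0.01), and of the other 10 sterol enzymes 8 were (median -2.0). Over all genes the shares were alike, 11.7% of 528 genes that rose with serum and 12% of 10702 that did not. The medians of these genes differed in the direction seen for the sterol enzymes, at 0.31 and -0.13. The split of the sterol enzymes was noticed in the values and was not tested.

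**Figure D3:**
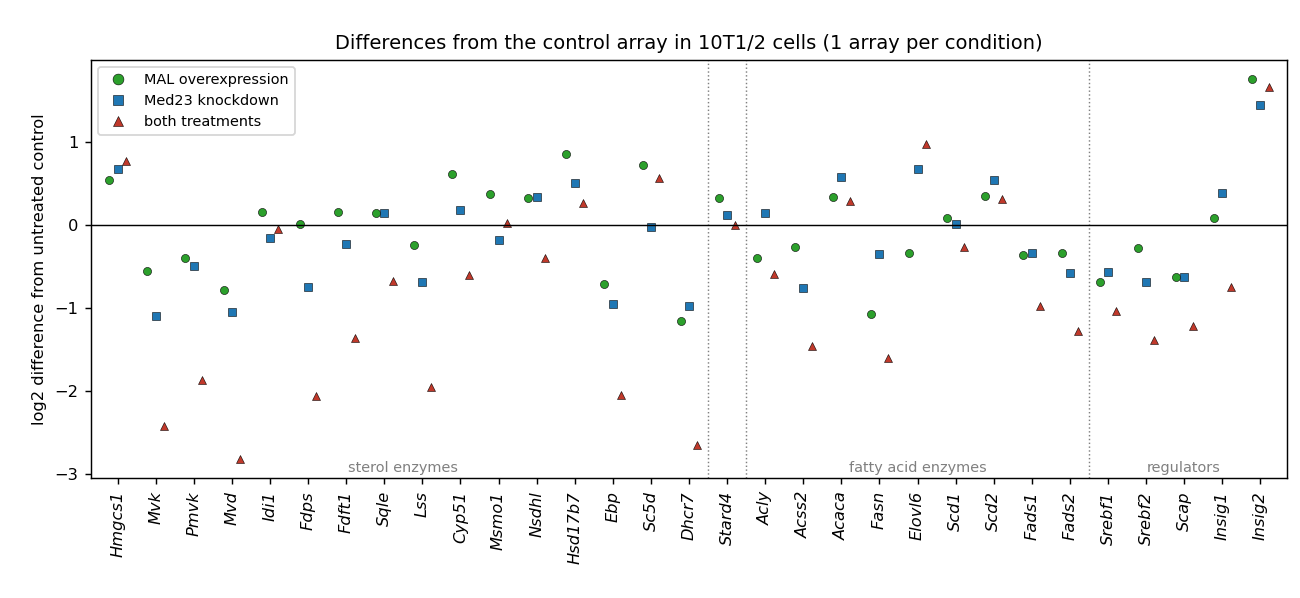
Log2 difference from the untreated 10T1/2 control for each of the 31 genes with MAL overexpression (circles), Med23 knockdown (squares) and both (triangles), 1 array per condition. The triangles of Mvk, Pmvk, Mvd, Fdps, Lss, Ebp and Dhcr7 lie far below the single treatments, whereas those of Hmgcs1, Hsd17b7, Msmo1 and Idi1 lie near or above 0.

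Regulators and fatty acid enzymes took part unevenly. Srebf2 was at 9.74 in control, 9.46 with MAL, 9.05 with knockdown and 8.36 with both, and Scap at 9.99, 9.37, 9.36 and 8.77. Srebf1 was at 9.07, 8.39, 8.51 and 8.03, so all 3 were lowest with both. Insig2 stood opposite, low in control at 6.92 and at 8.68, 8.36 and 8.58 in the treated cells, and Insig1 was at 9.0, 9.08, 9.38 and 8.25. Fasn was at 10.99, 9.92, 10.64 and 9.39, Fads2 at 9.59, 9.25, 9.01 and 8.32 and Acss2 at 7.22, 6.96, 6.46 and 5.77. Elovl6, at 6.81, 6.47, 7.49 and 7.79, was higher in both cultures with knockdown, with a coefficient of 1 (SE 0.23, adjusted p = 0.0854).

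With the probe sets chosen, the difference from control with both treatments lay below the sum of the single differences for all 16 sterol enzymes. The gap ran from -1.40 for Cyp51 to -0.05 for Idi1. The median of that gap was -0.96, and it was negative for 28 of the 31 members, beside 58.4% of all genes. For Hmgcs1, Msmo1, Hsd17b7 and Sc5d this was a smaller positive difference, such as 0.27 against a sum of 1.36 for Hsd17b7, and not a fall below control. Another Sc5d probe set, above the median on all 10 arrays, lay above the sum. Its differences were 0.64 with both treatments, 0.13 with knockdown and -0.22 with MAL, so the sign for Sc5d rests on the probe set used. The gap was at or below -1 for 6 sterol enzymes (Fdps, Fdft1, Lss, Cyp51, Nsdhl and Hsd17b7), 0 fatty acid enzymes and 2 regulators, beside 1.8% of all genes. The regulators were Insig1 and Insig2, and Insig2 stood 1.66 above control with both treatments against a sum of 3.20. Each of these values rests on 4 single arrays. The poly-A spike-in median was also highest in control and lowest with both treatments, at 8.24 in control, 7.49 with MAL, 7.53 with knockdown and 6.79 with both, while the array medians lay between 3.64 and 3.70. The part of the spike-ins' difference in these values was not tested.

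Loss of Med23 in MEFs and its knockdown in 10T1/2 cells gave coefficients of opposite sign for 14 of 16 sterol enzymes and 24 of 31 members, beside 44.7% of genes tested in both kinds of cell. With knockdown alone against control, in place of the coefficient, the signs were opposite for 10 of 16 sterol enzymes and 18 of 31 members, beside 46% of genes, and Hmgcs1, Sqle, Cyp51, Nsdhl and Hsd17b7 were higher in that array. The difference of the 2 effects, tested in 1 limma fit over all 10 arrays, was higher for 23 of 31 members and lower for 1, beside 13.7% and 15.6% of 13034 genes. Among sterol enzymes 14 of 16 were higher and Ebp was lower, with a median difference of 2.24, and among fatty acid enzymes 6 of 9 were higher with a median of 0.96. Mvd differed most (3.34, limma adjusted p = 0.000554), with a knockout coefficient of 1.79 and a knockdown coefficient of -1.54 (SE 0.29). Fdps differed by 3.25 (adjusted p = 0.000817), with 1.84 against -1.41 (SE 0.35). For 16 of 31 members every KO value was above its WT partner and both knockdown values were below their partners, beside 12% of 11230 genes tested in both kinds of cell. Another probe set above the median on all 10 arrays was higher with knockdown alone for Idi1 (0.17), Lss (0.78), Sc5d (0.13) and Fads1 (0.14). For Srebf2 and Fads2 another such probe set was lower in KO than in WT cells at 90 min (-0.23 and -0.27). With MAL present, that other probe set of Sc5d was also higher with knockdown (0.86), whereas that of Lss was lower (-0.74). Another such probe set of Cyp51 was 0.89 with knockdown alone and -0.77 with MAL present. The count of 16 members, those for knockdown alone and those for the coefficient thus rest in part on the probe set used.

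Some members kept 1 direction in both kinds of cell. Ebp fell in KO MEFs and had a knockdown coefficient of -1.15 (SE 0.20), and the difference of -1.07 passed (adjusted p = 0.0153). Elovl6 had positive coefficients in both, with a difference of 2.32 that passed (adjusted p = 0.000845), and Hmgcs1 had 2.13 and 0.46, a difference of 1.68 that passed (adjusted p = 0.00269). Srebf1 had -0.93 and -0.46, and their difference of -0.47 did not pass (adjusted p = 0.328). The limit of this comparison is that cell type, route of Med23 loss and serum state all differ between its sides and cannot be told apart. Without the control or the knockdown array Ebp was not called (-0.87 at the smallest), and without the MAL array or the array with both treatments the count of members called higher was 17.

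**Figure D4:**
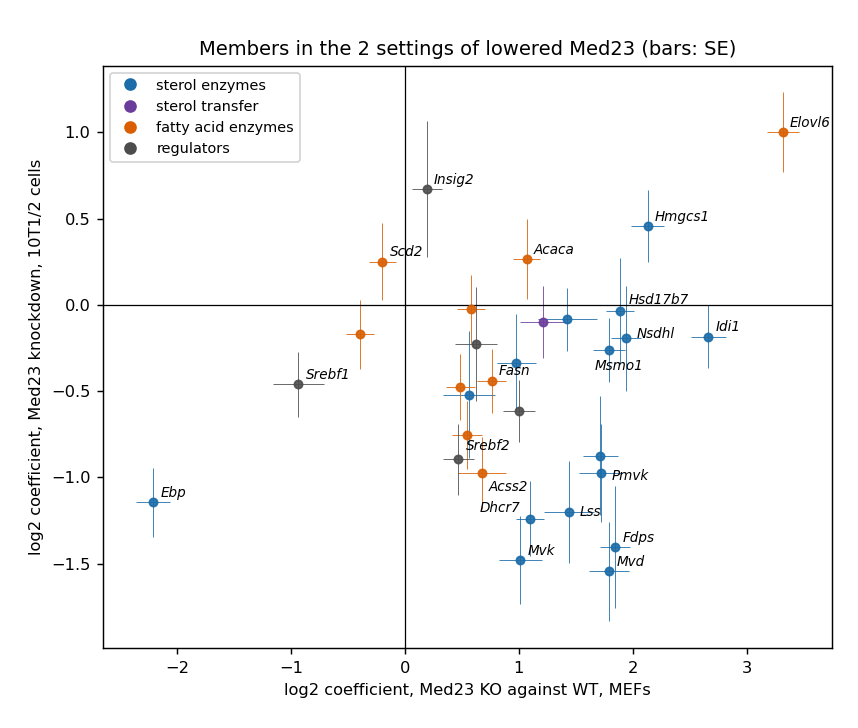
Fitted log2 coefficient of Med23 knockout in MEFs (horizontal) and of Med23 knockdown in 10T1/2 cells (vertical) for each of the 31 genes, with bars of 1 SE, coloured by role. Most sterol enzymes lie to the right of 0 and below it, with Mvd at 1.79 and -1.54, while Ebp lies low on both axes and Elovl6 high on both.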

How the data were processed

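Groups came from the sample labels. The deposited table holds log2 expression for 45101 probe sets on each array, on a scale read from the values themselves. The submitters' processing notes name RMA and MAS5 without a role. How the values were made, and whether MEF and 10T1/2 arrays shared a normalization, was not stated, so levels are not set across the 2 kinds of cell.

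Symbols came from the platform annotation, updated through Entrez identifiers to RefSeq names (GRCm38.p6), which covered 34741 of 34945 probe sets with 1 symbol. A further 932 probe sets with several symbols, 9160 unnamed and 64 controls were left out. The members had 74 probe sets, and 24 of 26 other probe sets above the median on all arrays had the sign of the one chosen in the knockout. A gene was tested where its highest value among the fitted arrays exceeded their median over all probe sets (3.90 in MEFs, 3.67 in 10T1/2 cells, 3.81 in the joint fit), which all 31 members passed.

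Fits used limma 3.58.1 in R 4.3.3: genotype plus serum time in MEFs (2 residual and 4.18 prior degrees of freedom), MAL plus knockdown in 10T1/2 cells (1 and 3.83), and both models together (3 and 4.83). The residual holds noise and any interaction, p-values are two-sided with Benjamini-Hochberg adjustment over all genes tested, and with no replicate cultures they measure only the spread around the additive model. On simulated data the knockout fit recovered 97% of 200 genes changed by 1 on the log2 scale, and the test of the difference between the 2 effects recovered 0% at 1 and 98.5% at 2. Only 200 genes were changed there, with noise drawn from the fits' own residual spread, whereas 42.1% of genes were called in the real knockout fit. These shares are therefore not the power of the real fits, where differences of 0.96 (Fads1) and 0.81 (Acaca) between the 2 effects passed. Differences of single arrays carry no p-value and were counted at an absolute log2 value of at least 1.

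All 31 members are accounted for; levels per array are given for the 10 largest knockout coefficients, members against their arm's direction, the regulators and members called elsewhere, with a few more chosen after their values were seen. The members and gene lists were chosen with earlier results of these data known. Of 43 other listed pathway genes 8 were not analysed here.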

Additional observations from a re-analysis of the deposited data

Results flagged for a closer look

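For 24 members the effect of Med23 knockout in MEFs differed from that of Med23 knockdown in 10T1/2 cells in the joint limma fit, and these differences (log2, knockout minus knockdown) are the results given a closer look. Among the enzymes from HMG-CoA to farnesyl pyrophosphate the difference was 3.34 for Mvd, 3.25 for Fdps, 2.85 for Idi1, 2.69 for Pmvk, 2.49 for Mvk and 1.68 for Hmgcs1. Among those from squalene to cholesterol it was 2.64 for Lss, 2.59 for Fdft1, 2.34 for Dhcr7, 2.13 for Nsdhl, 2.05 for Msmo1, 1.92 for Hsd17b7, 1.51 for Sc5d and 1.31 for Sqle, and it was -1.07 for Ebp. Among fatty acid enzymes it was 2.32 for Elovl6, 1.65 for Acss2, 1.30 for Fads2, 1.20 for Fasn, 0.96 for Fads1 and 0.81 for Acaca. Scap differed by 1.62, Srebf2 by 1.36 and Stard4 by 1.31. Of these 24 calls 17 held in all 11 alternative settings, and Acaca, Acss2, Ebp, Fads1, Sc5d, Sqle and Stard4 each lost theirs when at least 1 array of 10T1/2 cells was left out.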

How the results depend on the processing

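With 1 array per condition, left-out serum times and arrays stand in for left-out replicates. The labels carry no replicate numbers, so no replicate block was fitted. The knockout fit pairs the arrays by serum time, and its unpaired form, with no term for serum time, called 17 members higher in place of 25. For all 31 members in the knockout, 328 of 372 values under an alternative kept direction and call, 42 lost a call and 2 gained one. For the members called in the other comparisons, which could only lose a call, 315 of 352 kept it, 36 lost it and 1 reversed: Msmo1 between 30 and 90 min, 0.81 with its chosen probe set and -0.165 with the mean of its probe sets. The cause of these changes was not tested.

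In the knockout the members lower went from 3 to 1 with no term for serum time, without the 0 min and without the 30 min arrays, and the members higher from 25 to 15 without the 30 min arrays. At 30 min of serum the members higher went from 1 to 0 with averaged probe sets, with quantile normalization and without the 90 min arrays, and to 2 with a variance trend; in the 10-array fit the 1 member called was Idi1 and not Hsd17b7. At 90 min they went from 8 to 0 without the 30 min arrays. From 30 to 90 min they went from 2 to 1 in the 10-array fit, with averaged probe sets and with quantile normalization, to 4 with the trend and to 0 without the 0 min arrays.

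In 10T1/2 cells the members lower with MAL went from 0 to 6 in the 10-array fit, 2 with averaged probe sets, 6 with quantile normalization and 3 with the trend, and the members higher from 0 to 1 with quantile normalization. Leaving out 1 array of 10T1/2 cells, in fits of the other 9 that were chosen after seeing the data and assume a lone sample to vary like the others, gave 1 to 5 lower and 0 to 1 higher. With knockdown the members lower went from 0 to 11, 4, 10 and 4 under the same 4 settings and the members higher to 1 in the 10-array fit and with quantile normalization, and leaving out 1 array gave 0 to 10 lower and 0 to 1 higher. For both treatments against control, centring each array on its median gave 2 members higher by at least 1 in place of 1.

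For the difference of the 2 effects, the sterol median minus the fatty acid median went from 1.28 to 0.89 with averaged probe sets and was 1.13 to 1.52 with 1 array left out, and the members lower were 0 to 2.

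Over all genes, the calls went from 5018 to 2857 with no term for serum time, 2680 without the 0 min and 2398 without the 30 min arrays in the knockout, from 1612 to 18 at 90 min without the 30 min arrays, and from 1183 to 768 with averaged probe sets and 139 without the 0 min arrays between 30 and 90 min. They ran from 10 to 59 around 30 at 30 min, from 0 to 2236 around 8 with MAL, from 0 to 2658 around 0 with knockdown, and from 2253 to 3928 around 3814 for the difference of the 2 effects.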

Other observations

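Tm7sf2, a sterol reductase outside the member list, had the pattern of the sterol enzymes in an extreme form. In 10T1/2 cells it was at 10.04 in control, 9.31 with MAL, 8.59 with knockdown and 6.62 with both treatments. Its knockout effect minus its knockdown effect was 4.73 (SE 0.37, limma adjusted p = 0.000154), above that of any member. Tmem97 differed by 1.91 and Slc25a1, the mitochondrial citrate carrier, by 1.52. Vldlr ran the other way, with a difference of -5.40 (adjusted p = 4.48e-05), and was at 5.14 in the 10T1/2 control, 6.34 with MAL, 5.95 with knockdown and 6.55 with both. These genes were singled out after their values were seen.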
